A study of Arabidopsis thaliana with 12 samples.

Results

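The core MAC3A regions are the stretches of chromosomes 1 to 5 where all 6 MAC3A peak lists of the study, 3 from blue light and 3 from darkness, held a peak. Peaks of the 6 lists were joined into union regions wherever they overlapped by at least 1 bp, and a region was kept when each of the 6 libraries had a peak in it. This gave 533 core regions among 2917 union regions (18.3%). The regions were thus chosen by the peak calls of the same 6 libraries, so their fold, rank and −log10 q are described here without a test.

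The libraries are chromatin immunoprecipitation sequencing (ChIP-seq) of Arabidopsis thaliana seedlings grown for 6 days, with 3 blue light and 3 dark MAC3A libraries and 6 control samples titled as inputs that were not analysed here. All 12 samples carry the genotype label Columbia-4, and the growth notes name plants with a MAC3A-GFP transgene for the immunoprecipitation and plants with GFP alone for the control, without naming the promoter or the line. The same notes name blue light for every sample and an anti-FLAG antibody, so blue and dark are known from the titles alone, and the labels do not settle which tag was precipitated. The file code of dark replicate 3 bears the replicate mark of dark replicate 2. Nothing in the labels says that the libraries came from separate cultures, so p-values measure only the spread between these libraries.

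MAC3A belongs to the MOS4-associated complex, which corresponds in plants to the Prp19 complex that activates the spliceosome, and its U-box marks it as a ubiquitin ligase. The complex takes part in pre-mRNA splicing, in the making of small RNAs and in plant immunity. Cryptochromes are the blue-light receptors of plants, and HY5 is the transcription factor that drives seedling development in the light; the series title places MAC3A beside both. The core regions show where a peak was called in every library of both light conditions, and which genes lie at or near them.

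The core regions were few but held much of what each library detected. The lists held 1505, 1820 and 1578 peaks in blue light and 1285, 1225 and 1169 peaks in the dark. Core peaks made up 36.1%, 29.9% and 34.3% of the peaks in the blue lists, against 42.7%, 44.3% and 46.5% in the dark lists. Of the length covered by peaks they held 49.5%, 43.5% and 47.5% in blue light and 55.6%, 58.0% and 59.3% in the dark. The share was thus lower in each blue list than in each dark list, and the blue lists were the longer ones. Among the 100 peaks of each list with the highest −log10 q, the caller's measure of how unlikely a peak is by chance, 98, 99 and 100 were core peaks in blue light and 92, 96 and 95 in the dark. Read totals were not used, so the counting error behind a single peak's value is unknown here.

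Nearly all core regions lay in or beside genes, and mostly in gene bodies. Each region was placed by its consensus summit, the median of the positions of the strongest summit in the 6 libraries. This summit fell inside a gene body in 458 core regions (85.9%), within 1 kb of a gene in 72 (13.5%) and farther away in 3 (0.563%). The regions found in 1 to 5 libraries had 71.9% in gene bodies, 25.7% within 1 kb and 2.43% farther away. The gene-body share was 81.0% in regions of 5 libraries, 69.4% in those of 4, 74.3% in those of 3, 69.8% in those of 2 and 70.5% in those of 1. It was therefore highest for the core, next for the regions that missed the core by 1 library, and without order among the rest.

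**Figure D1:**
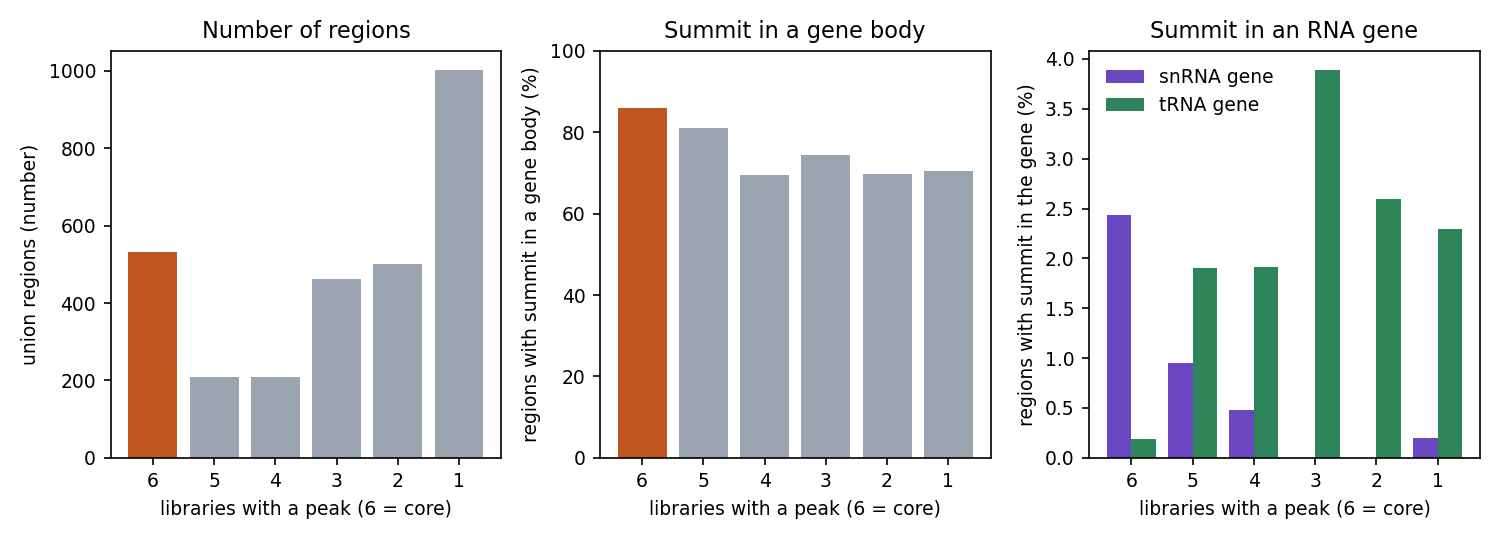
Union regions by the number of libraries with a peak, from 6 (core, orange) to 1: number of regions (left), percent with the consensus summit in a gene body (middle), and percent with it in an snRNA or tRNA gene (right). The core bar stands at 85.9% in the middle panel, and in the right panel the snRNA bar is highest for the core (2.44%) while the tRNA bar is lowest there (0.188%).

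The same difference appeared library by library. Counting each library's own strongest summit, the core regions had 85.6%, 85.9% and 85.6% in gene bodies in blue light and 85.4%, 85.7% and 86.1% in the dark. The other regions had 69.3%, 70.4% and 70.9% in blue light and 76.6%, 75.0% and 79.2% in the dark. The lowest core value thus lay above the highest value of the other regions; the 6 libraries share the same core regions, so no test was made over them. Between conditions the core share was 85.7 ± 0.217% in blue light and 85.7 ± 0.375% in the dark (SD, n = 3 each). The difference of -0.0625 points was within the spread between libraries (two-sided exact permutation test, p = 1). With 3 libraries against 3, the smallest p this test can give is 0.10.

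Core summits also lay deeper inside genes. The median distance from the consensus summit to the nearest gene end was 327 bp for the core and 201 bp for the regions of 1 to 5 libraries. Among summits inside protein-coding genes, 37.8% of 439 in the core lay within 300 bp of an end of that gene, against 52.9% of 1627 in the other regions. The outer 10% of the gene at either end held 28.5% of the core summits and 41.3% of the others. The host genes themselves were of like size, with a median length of 2301 bp for the core and 2319 bp for the other regions, against 2078 bp for all protein-coding genes. The gene table gives no strand, so the 5′ and 3′ ends of genes were not told apart. The 482 genes under core summits each held 1 such summit.

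Core peaks were wide. A core region, as the union of its peaks, had a median width of 736 bp (middle 50% of regions 540 to 971 bp, range 306 to 2755 bp), and the 533 regions covered 428 kb. Wider than 1000 bp were 118 of them (22.1%). Regions of 5, 4, 3, 2 and 1 libraries had median widths of 491.5, 481, 452, 357 and 252 bp. A union of more peaks can only be as wide or wider, by its making. Within single libraries the median core peak measured 531, 566 and 537.5 bp in blue light and 510, 512 and 513 bp in the dark. Peaks outside the core measured 298, 302 and 300 bp in blue light and 295.5, 290.5 and 287 bp in the dark. The rule asks for overlap, which wide peaks meet more readily, so this contrast is not evidence apart from the rule. The mean of the core peak medians was 545 ± 18.6 bp in blue light and 512 ± 1.53 bp in the dark (SD, n = 3 per condition). Every blue value exceeded every dark value, and the difference of 33.2 bp had p = 0.10 by the two-sided exact permutation test, the smallest possible. The blue lists were also the longer ones. With lists of equal length the difference was 44.3 bp (two-sided exact permutation test, p = 0.10). The cause of the difference was not tested.

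**Figure D2:**
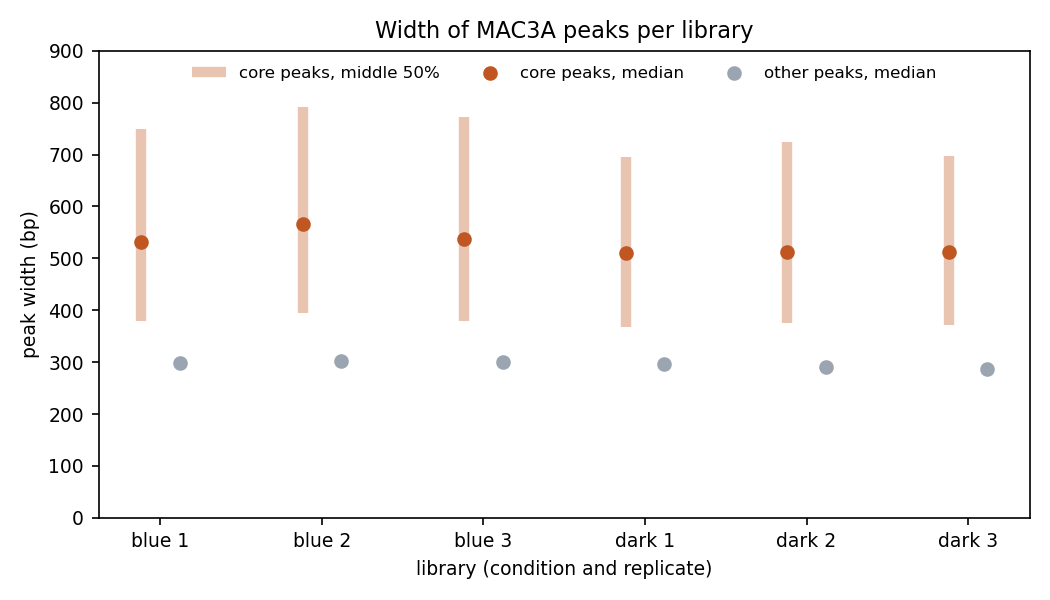
Width of MAC3A peaks (bp) in each of the 6 libraries: orange points are medians of core peaks with bars for their middle 50%, grey points are medians of all other peaks. The orange points lie between 510 and 566 bp and the grey points between 287 and 302 bp.

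Most core regions were single peaks with a single summit. In 499 regions (93.6%) each library gave exactly 1 peak, and the other 34 regions joined more peaks, up to 12. The mean number of summits per core region was 1.19, 1.26 and 1.22 in blue light and 1.22, 1.18 and 1.21 in the dark. The means of 1.22 ± 0.0339 in blue light and 1.20 ± 0.0209 in the dark (SD, n = 3 each) differed by less than the spread between libraries (two-sided exact permutation test, p = 0.5). One summit in every library was found at 274 regions (51.4%), whose median width was 604.5 bp; the other 259 regions had a median width of 878 bp. At least 2 summits in every library were found at 12 regions.

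The strongest summits of the 6 libraries lay close together. They spanned a median of 80 bp per region (middle 50% of regions 47 to 147 bp), and 319 regions (59.8%) had a span of at most 100 bp. Regions with a single summit in every library had a median span of 64.5 bp, against 123 bp in the others. All 17 regions with a span over 500 bp were among those with more than 1 summit in some library, where the strongest summit can move from one to the next. The consensus summit sat near the middle of its region, at a median of 0.478 of the width from the left end. Between any 2 libraries the median summit distance was 27 to 33 bp. It was 30.7 ± 1.80 bp over the 9 pairs of a blue and a dark library and 29.3 ± 2.25 bp over the 6 pairs of the same condition (SD over pairs). The difference of 1.33 bp had p = 0.10 by the one-sided exact permutation test, the smallest possible.

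**Figure D3:**
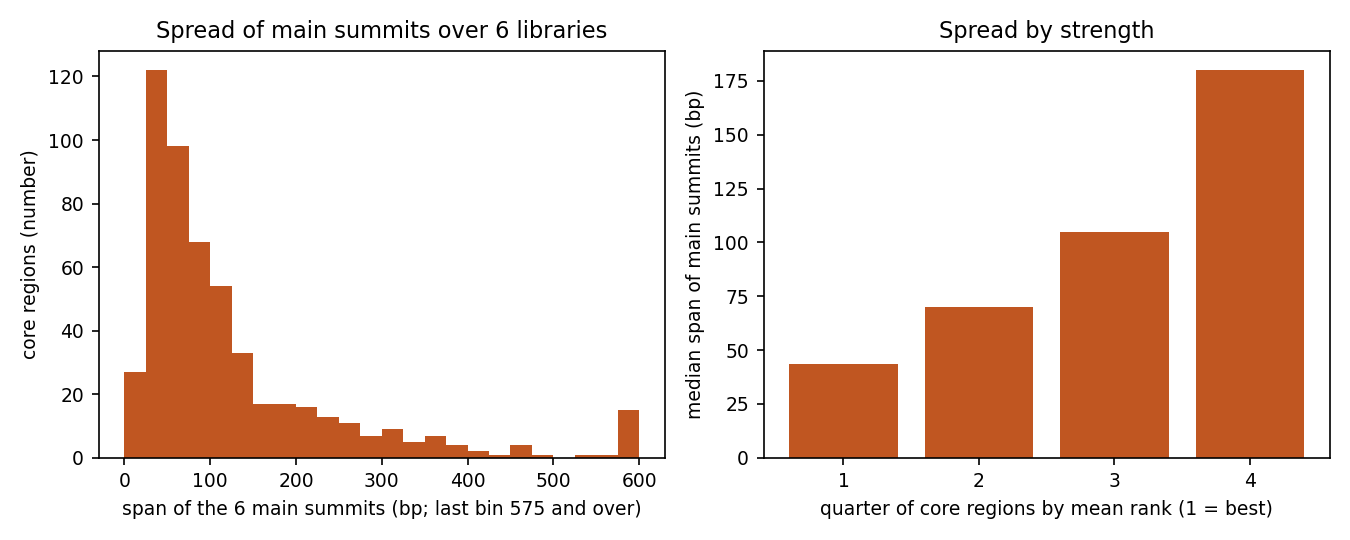
Left: number of core regions by the distance (bp) between the outermost of the 6 libraries' strongest summits; the last bar takes all larger values. Right: median of this span in 4 groups of core regions by mean rank (1 is the best); the medians are 43.5, 70, 105 and 180 bp.

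Rank ordered the core. For each region, the rank of its best peak by −log10 q was averaged over the 6 lists, and the regions were divided into 4 groups of 134, 133, 133 and 133 by this mean rank. From the best to the worst group, the median width was 985.5, 745, 597 and 598 bp. The share with the summit in a gene body was 91.0%, 88.0%, 82.0% and 82.7%, and the median distance to the nearest gene end was 471.5, 306, 255 and 261 bp. The share of regions with a single summit in all libraries was 58.2%, 57.9%, 55.6% and 33.8%. The best-ranked regions were thus the widest, lay deepest in genes and had the most sharply placed summits. Rank and width both come from the same pileup of reads, so they are not separate evidence.

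The 20 best-ranked core regions lay in or beside genes of many kinds. Fold enrichment here is the authors' ratio of the ChIP signal at the summit to the local background. It depends on the depth of each list, so it is used to describe and rank peaks within lists. The first place belonged to a region over MC7, which encodes a metacaspase, a caspase-like protease of plants (chromosome 1, 29833578 to 29835312, TAIR10). Its fold was 15.0, 17.3 and 13.7 in blue light and 25.0, 20.5 and 23.6 in the dark. The second place, over the receptor-like kinase gene AT1G05700, had 14.1, 14.2 and 13.6 in blue light and 25.2, 23.9 and 23.3 in the dark. At both regions every dark value lay above every blue value.

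That order did not hold at all of the 20 best-ranked regions. YUC3 encodes a flavin monooxygenase that makes auxin (chromosome 1, 1279374 to 1281216). Its fold was 14.0, 14.9 and 14.8 in blue light and 13.9, 13.8 and 14.7 in the dark, so the conditions overlapped. GSR 1 (AT5G37600) encodes a cytosolic glutamine synthetase, the enzyme that binds ammonium into glutamine (chromosome 5, 14934498 to 14935927). It had 12.3, 13.7 and 11.8 in blue light and 12.9, 13.1 and 12.6 in the dark. CHX2, a cation/proton exchanger gene (chromosome 1, 29866708 to 29868474), had 12.5, 10.1 and 12.6 in blue light and 13.3, 13.2 and 9.82 in the dark. YUC3, GSR 1 and CHX2 had overlapping values, as did AT5G59050 and AT5G53710; at the other 15 regions each dark value was the higher, an order shown by 42.4% of all 533 core regions.

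**Figure D4:**
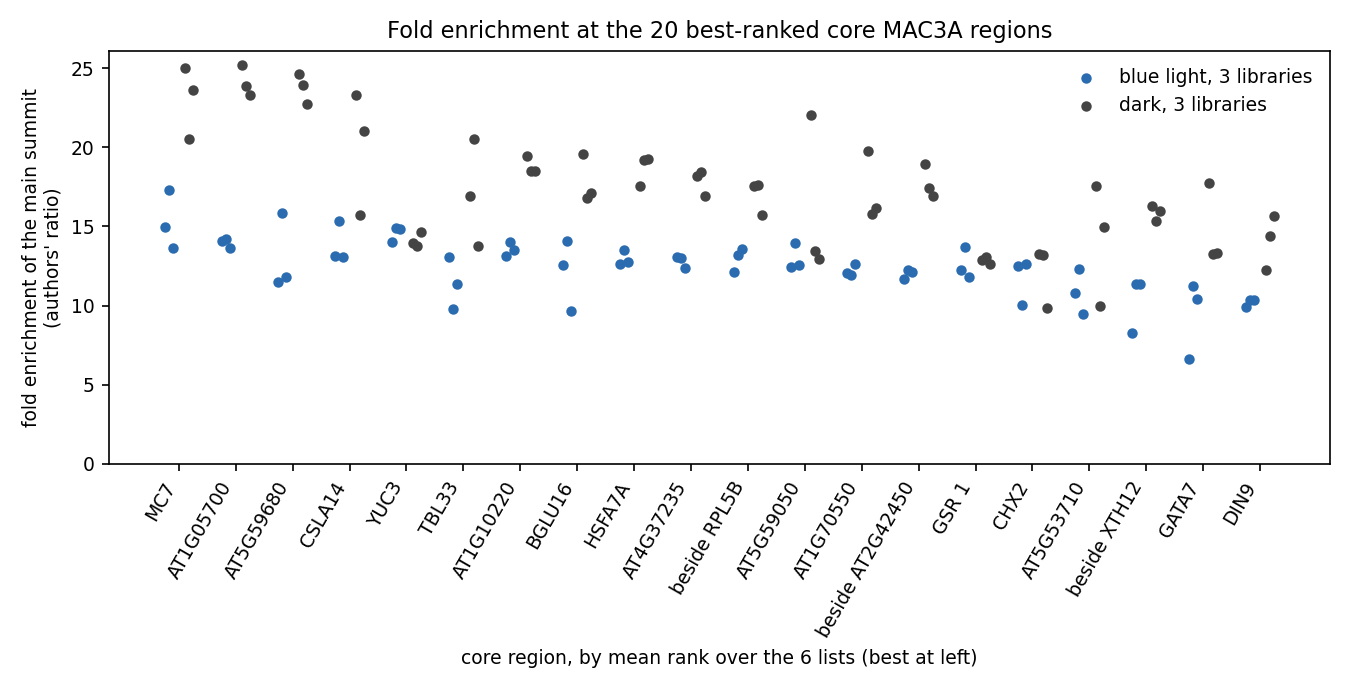
Fold enrichment (authors' ratio) of the strongest summit at the 20 core regions with the best mean rank, best at left; blue points are the 3 blue light libraries and dark grey points the 3 dark libraries. The dark points lie above the blue points at MC7 and AT1G05700, and both sets overlap at YUC3 and GSR 1.

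The rest of the 20 included further cell wall genes. CSLA14, of the family that makes the mannan backbone, had folds of 13.2, 15.3 and 13.1 in blue light and 23.3, 15.8 and 21.1 in the dark. TBL33, of a family that acetylates xylan, had 13.1, 9.76 and 11.4 in blue light and 16.9, 20.5 and 13.7 in the dark. The region beside XTH12, a xyloglucan endotransglucosylase gene, had 8.28, 11.4 and 11.4 in blue light and 16.3, 15.3 and 16.0 in the dark. Genes of regulation and metabolism filled other places. They were HSFA7A (a heat shock factor), GATA7 (a GATA transcription factor), BGLU16 (a beta-glucosidase) and DIN9 (a phosphomannose isomerase whose name stands for dark-inducible). In DIN9 (chromosome 1, 25042199 to 25043914) the fold was 9.88, 10.4 and 10.4 in blue light and 12.2, 14.4 and 15.7 in the dark.

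The widest core regions were mostly other genes. GDH2, which encodes a subunit of glutamate dehydrogenase, held the widest, at 2755 bp (chromosome 5, 2355864 to 2358618). It had 5, 5 and 4 summits in blue light and 1, 1 and 1 in the dark, at folds of 3.42, 3.51 and 3.29 in blue light and 2.81, 4.18 and 3.56 in the dark. The homeodomain-leucine zipper gene HB16 (chromosome 4, 18571192 to 18573222) had the same form, with 5, 4 and 3 summits in blue light and 1, 1 and 1 in the dark. At both genes the blue libraries thus held several summits where the dark libraries held 1. Both were picked as extremes in width and number of summits, and the share of all core regions with this order was not counted. The mean over the core was 1.22 summits in blue light and 1.20 in the dark (two-sided exact permutation test, p = 0.5). At HB16 each blue fold also lay above each dark fold, as at 4.32% of all core regions, while at GDH2 the folds overlapped. AT1G70810 (chromosome 1, 26703406 to 26705717) had the most summits of all, 21 over the 6 libraries, spread as 3, 4 and 3 in blue light and 4, 3 and 4 in the dark. This region joined 12 peaks, against 7 at GDH2, so its summits came from more than 1 peak in some libraries. HSFA7A was among both the 20 best-ranked and the 10 widest regions, at 2160 bp, and had at least 2 summits in every library.

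Within the core the libraries of a condition resembled each other more than those of the other condition. The rank correlation of the folds over the 533 regions was 0.791 to 0.816 for the 6 pairs of libraries of 1 condition and 0.664 to 0.713 for the 9 pairs of a blue and a dark library. These are descriptions over regions that share their libraries. The median core fold was 3.64, 3.81 and 3.70 in blue light and 4.54, 4.59 and 4.37 in the dark. The other peaks had a median fold of 2.75, 2.69 and 2.70 in blue light and 3.08, 3.08 and 3.11 in the dark. Folds were thus lower in blue light both inside and outside the core. At 23 core regions (4.32%) each blue fold lay above each dark fold, and at 226 (42.4%) each dark fold lay above each blue fold.

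The 533 regions were also ranked within each list by −log10 q, which gives every list the same set of places. By this other measure 72 regions (13.5%) had the better place in all 3 blue libraries and 68 (12.8%) in all 3 dark libraries; such ranking balances the directions by its construction. The regions with the better place in blue light had a median width of 915 bp, those with the better place in the dark 738.5 bp.

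Among the regions that stood higher in blue light, AT5G51670 (chromosome 5, 20993607 to 20995185) had a mean place within the core of 54.3 in blue light and 392.7 in the dark. Its fold was 4.64, 6.42 and 5.08 in blue light and 2.03, 2.05 and 1.95 in the dark. CYCP4;1, a P-type cyclin gene (chromosome 2, 18442325 to 18443451), had 5.62, 5.89 and 3.96 in blue light and 2.64, 2.20 and 2.66 in the dark. At both genes each blue value exceeded each dark value, as at 4.32% of all core regions. The regions of this group were picked as the extremes in place, which rests on the same peaks, so their folds are not separate evidence. The others in this group were AT5G61340, AT2G40230, SAHH2 (S-adenosylhomocysteine hydrolase), the region beside ARF2 and HSFB2A, the region beside AT4G12220 and AT4G12230, and IAA16. SAHH2, which clears the by-product of methylation reactions, had 3.99, 3.28 and 3.44 in blue light and 2.29, 2.81 and 2.03 in the dark. At IAA16 the folds overlapped, at 4.73, 5.13 and 4.14 in blue light and 4.31, 2.93 and 3.82 in the dark, although its mean place was 135 in blue light and 334 in the dark.

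Among the regions that stood higher in the dark, EXPA1, an expansin gene of wall loosening (chromosome 1, 26141846 to 26143145), had a mean place of 293.7 in blue light and 70.7 in the dark. Its fold was 2.39, 2.13 and 2.29 in blue light and 6.92, 4.08 and 6.45 in the dark. WRKY15, a transcription factor gene (chromosome 2, 9925431 to 9926475), had 1.94, 2.05 and 1.92 in blue light and 5.67, 3.32 and 4.44 in the dark. In fold both stood low in the blue lists and well inside the dark lists. By −log10 q EXPA1 was nearer the middle of the core in blue light, at places 256, 339 and 286 of 533. WRKY15 was near the bottom there, at 506, 466 and 524. At both each dark fold was the higher, as at 42.4% of all core regions. This group too was picked as the extremes in place, so its folds are not separate evidence. The other regions of this group were at NUDT21 (a Nudix hydrolase), CEP3 (a cysteine endopeptidase), CM1 (chorismate mutase), DDB2 (a DNA damage-binding protein), HCF107 (a factor of chloroplast RNA processing) and beside XTH13. The largest dark to blue ratio of median folds among regions with no overlap was 4.39, at CYP707A3. This gene encodes an abscisic acid 8′-hydroxylase, which breaks down the stress hormone (chromosome 5, 18369517 to 18371196). Its fold was 3.04, 3.14 and 2.99 in blue light and 13.3, 13.5 and 9.72 in the dark, and it was picked out after its values were seen.

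At 5 regions the median summit of the blue libraries lay more than 300 bp from that of the dark libraries, while the median over all core regions was 21 bp. NUDT21 (chromosome 1, 27645282 to 27646751) had the largest distance, 915 bp, with 1 summit in each library but dark replicate 2, which had 2. The strongest blue summits lay at 27645444 to 27645576 and the dark ones at 27646412 to 27646451. The region joined 7 peaks by overlaps of at least 1 bp, so its higher place in the dark compares signal at different sites. The other 4 were TCP3, a leaf development factor gene (663 bp), the calcium-signalling kinase gene CIPK21 (412 bp), the sucrose synthase gene SUS3 (315 bp) and AT5G00715 beside the 14-3-3 gene GRF8 (309 bp). At these 4 several summits were called in at least 1 library of each condition, so the distance there depends on which summit was taken as the strongest.

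The core was next described by its genes. A gene was counted when, in at least 1 library of each condition, the strongest summit of a core region fell inside it or no farther than 1 kb from it. This held for 732 of 27444 protein-coding genes (2.67%), and for 443 (1.61%) when only gene bodies were counted. Of all 37899 genes of any kind, 812 (2.14%) had a core region. Genes with a symbol of their own were counted more often, 336 of 10374 (3.24%), than genes without one, 396 of 17070 (2.32%); their median lengths were 2487 and 1835 bp. The families that follow were drawn by symbol, so 3.24% is the nearer value to read them against. They are incomplete where members carry another name, as the core gene DDF1 does, and the core gene Lhca5 was also missed. The totals over several families cover the families drawn here, not every gene of that function.

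Of 39 gene families, 29 had a higher share of core genes than the 2.67% of all protein-coding genes, 26 a higher share than the 3.24% of genes with a symbol, and 6 had none. Together 93 of 1630 family members (5.71%) had a core region. Many families have few members, so that 1 gene moves the share by several points. No test was made over the families, since they were chosen with results of these data known.

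**Figure D5:**
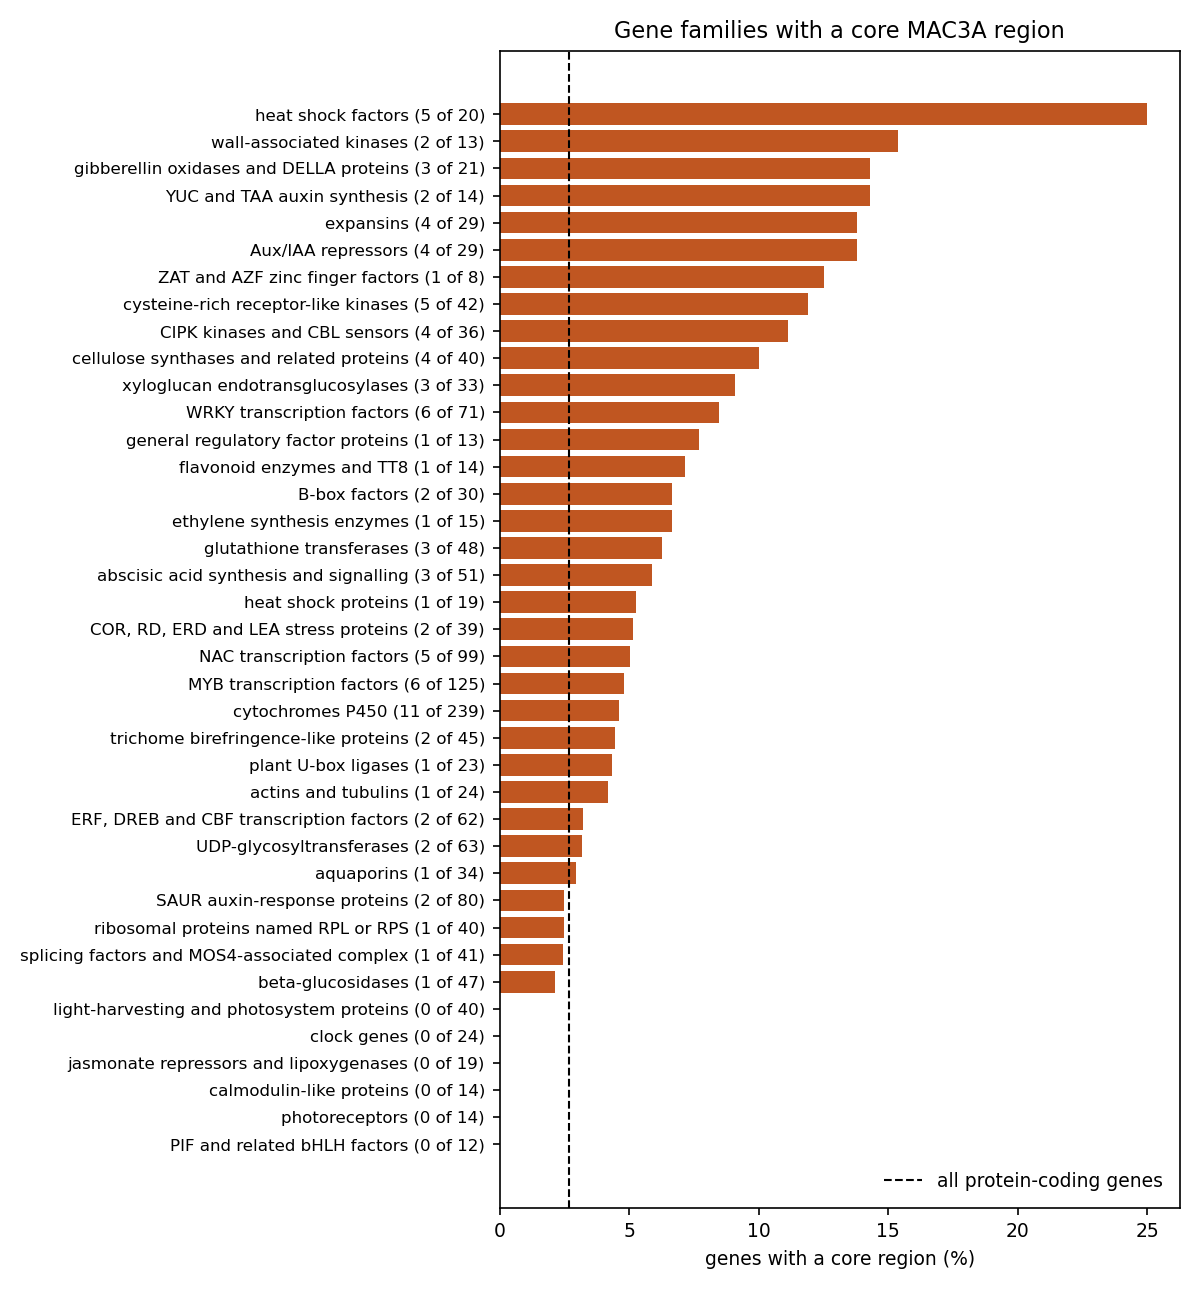
Percent of the members of 39 gene families with a core MAC3A region (bars), with the counts beside each name; the dashed line marks the 2.67% of all protein-coding genes. Heat shock factors stand highest (5 of 20), and 6 families, among them photoreceptors, PIF factors and clock genes, have no core region among the members drawn.

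The cysteine-rich and wall-associated receptor-like kinases, which carry signals from the cell surface inward, had 7 core genes of 55 (12.7%). Other receptor kinases such as AT1G05700 are outside these families. The 7 were CRK20, CRK12, CRK13, CRK41 and CRK40 of the cysteine-rich kinases (5 of 42), and WAKL2 and WAKL1 of the wall-associated kinases (2 of 13). CRK12 and CRK13 share 1 region between them, and both wall-associated kinases were reached only within 1 kb of the summit. The region beside WAKL1 (chromosome 1, 5522084 to 5522842) had folds of 5.37, 4.03 and 4.91 in blue light and 5.58, 6.91 and 5.45 in the dark. CRK20 had 5.05, 5.56 and 4.87 in blue light and 6.44, 5.71 and 7.22 in the dark. In both cases each dark value was the higher, as at 42.4% of all core regions. Next in line inside the cell, the CIPK kinases and their calcium-sensing CBL partners had 4 core genes of 36, namely CIPK22, CIPK21, CIPK15 and CIPK19, while the calmodulin-like proteins had 0 of 14.

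The hormone families had 15 core genes of 229 (6.55%). In auxin synthesis, YUC3 and YUC7 were the 2 core genes of 14 in the YUC and TAA families. YUC7 (chromosome 2, 14080765 to 14081840) had folds of 7.13, 7.72 and 7.57 in blue light and 10.0, 8.24 and 7.36 in the dark, and the conditions overlapped. Of the Aux/IAA repressors, which hold auxin responses off, 4 of 29 were core genes: IAA16, IAA18, PAP1 (AT3G16500) and ATAUX2-11. Gibberellin enzymes gave 3 of 21 together with the DELLA repressors: GA2OX2 and ATGA2OX1, which inactivate gibberellins, and GA20OX2, which makes them. GA2OX2 had 3.49, 5.69 and 3.41 in blue light and 7.74, 6.80 and 6.76 in the dark. Each dark value was the higher there, as at 42.4% of all core regions. The conditions overlapped at ATGA2OX1 (3.97, 3.81 and 5.17 in blue light, 3.02, 6.02 and 5.83 in the dark) and at GA20OX2 (3.81, 2.87 and 3.95 in blue light, 4.15, 2.59 and 3.91 in the dark).

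For abscisic acid, 3 core genes of 51 were in the list of its synthesis and signalling. NCED3, the rate-limiting enzyme of its synthesis under drought (chromosome 3, 4831323 to 4832420), had folds of 7.96, 9.28 and 7.91 in blue light and 6.40, 6.61 and 4.73 in the dark. SNRK2-8, of the kinase family that carries abscisic acid and osmotic stress signals (chromosome 1, 29458528 to 29459476), had 10.2, 10.1 and 9.85 in blue light and 14.5, 14.0 and 11.1 in the dark. The third was SNRK2.7, where the conditions overlapped. At NCED3 each blue value lay above each dark value, as at 4.32% of all core regions. At SNRK2-8 each dark value lay above each blue value, as at 42.4% of them. The same held at CYP707A3, a gene of abscisic acid breakdown outside this list that was picked out after its values were seen. CYP707A1, the other 8′-hydroxylase gene in the core (chromosome 4, 10521151 to 10522711), had 6.45, 5.78 and 7.01 in blue light and 5.96, 7.19 and 6.17 in the dark, with the conditions overlapping. Other hormone lists had few core genes: ACS6 among the ethylene enzymes (1 of 15), 2 of 80 SAUR genes and 0 of 19 jasmonate repressors and lipoxygenases.

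The cell wall families had 13 core genes of 147 (8.84%). Expansins, which loosen walls, gave 4 of 29: EXPA10, EXPA1, EXPA17 and EXPA16. Xyloglucan endotransglucosylases, which cut and rejoin wall polymers, gave 3 of 33: XTH12, XTH9 and XTH13, of which XTH12 and XTH13 are served by neighbouring regions. The cellulose synthase superfamily gave 4 of 40: CSLA14, CSLC04, CSLA02 and ATCSLA09. The trichome birefringence-like proteins gave TBL33 and TBL27, 2 of 45. EXPA10 (chromosome 1, 9259777 to 9260799) had folds of 6.30, 5.35 and 5.52 in blue light and 5.42, 9.04 and 7.07 in the dark, and CSLA02 had 6.82, 6.46 and 6.43 in blue light and 4.49, 6.65 and 3.52 in the dark. Both overlapped between conditions, as did EXPA16, XTH9, CSLC04 and TBL27. At EXPA1, EXPA17, XTH12, XTH13, CSLA14, ATCSLA09 and TBL33 each dark value was the higher, as at 42.4% of all core regions.

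The transcription factor families drawn here had 25 core genes of 385 (6.49%); factors of other families, such as GATA7, HB16 and TCP3, are not among them. The heat shock factors, a family that includes activators of chaperone genes, had the highest share of the 39 families, 5 of 20 (25%). They were HSFA7A, AT-HSFA7B, HSFA3, HSF4 and HSFB2A. HSFA7A (chromosome 3, 19264962 to 19267121) had folds of 12.6, 13.5 and 12.7 in blue light and 17.6, 19.2 and 19.3 in the dark. AT-HSFA7B (chromosome 3, 23398976 to 23399849) had 7.67, 6.34 and 7.02 in blue light and 10.8, 9.76 and 10.1 in the dark. HSFA3 (chromosome 5, 973843 to 974448) went the other way, with 5.21, 4.69 and 5.42 in blue light and 4.29, 3.74 and 2.73 in the dark. The groups did not overlap at any of these 3 genes, but HSFA3 had its higher values in blue light. Over all core regions, 42.4% had each dark value the higher and 4.32% each blue value. HSF4 and HSFB2A had lower folds, between 2.50 and 3.89 in the 6 libraries, and at both the conditions overlapped. The count of 5 was 3 with peaks of a −log10 q of at least 5 or with a stricter overlap, and 2 with peaks of a fold of at least 3. The heat shock proteins themselves had 1 core gene of 19, HSP17.4.

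The larger families had lower shares. WRKY factors, mostly of defence and stress, had 6 of 71 (WRKY60, WRKY47, WRKY46, WRKY33, WRKY15 and WRKY7). At WRKY60 the fold was 4.81, 5.05 and 4.79 in blue light and 6.62, 7.61 and 6.29 in the dark. WRKY33, a regulator of defence against fungi, had 2.02, 3.05 and 2.55 in blue light and 5.06, 3.54 and 3.65 in the dark. At WRKY60, WRKY33, WRKY46 and WRKY15 each dark value was the higher, and at WRKY47 and WRKY7 the conditions overlapped; over all core regions 42.4% had each dark value the higher. MYB factors had 6 of 125 (MYB6, MYB61, MYB109, MYB7, MYB32 and MYB120) and NAC factors 5 of 99 (NAC080, NAC094, CUC1, NAC100 and NTM1). NAC080 (chromosome 5, 2435872 to 2437241) stood highest of these by rank, with 7.02, 7.84 and 8.06 in blue light and 7.38, 7.83 and 9.10 in the dark, the conditions overlapping. The ERF, DREB and CBF factors drawn by name had 2 of 62, ERF1 and ERF53. DDF1, a related factor under another name, also held a core region but is not among these 62.

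The enzyme families of specialised metabolism had 15 core genes of 363 (4.13%). Cytochromes P450, oxygenases of hormones and defence compounds, gave 11 of 239. Besides CYP707A1 and CYP707A3 they included BR6OX1, which acts in brassinosteroid synthesis, and a row of 3 neighbouring core regions over CYP71B2, CYP71B28 and CYP71B7 (chromosome 1, 4458827 to 4467909). The middle one had folds of 7.83, 8.26 and 8.08 in blue light and 10.1, 9.79 and 8.62 in the dark. Of the flavonoid genes, LDOX, an enzyme of anthocyanin synthesis, was the core gene among 14. The stress families had 6 of 106 (5.66%): GSTU9, GSTF6 and GSTU13 of the glutathione transferases, LTI78 and LEA3 of the dehydration genes, and HSP17.4. LTI78 (chromosome 5, 21242174 to 21243245) had 5.13, 5.29 and 5.81 in blue light and 5.43, 5.22 and 5.89 in the dark, alike in both conditions within their spread.

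The families of light signalling and photosynthesis, as drawn here, had 2 core genes of 120 (1.67%). This share is near the 2.67% of all protein-coding genes and the 3.24% of genes with a symbol. Photoreceptors had 0 of 14, PIF and related bHLH factors 0 of 12, clock genes 0 of 24, and light-harvesting and photosystem proteins 0 of 40. The last list is incomplete. Lhca5, a light-harvesting gene not among these 40, held a core region with median folds of 3.29 in blue light and 5.15 in the dark. The 2 core genes of the families as drawn were B-box factors (2 of 30), a family with several members that work with HY5 in the light. BBX9 had folds of 3.28, 2.92 and 2.97 in blue light and 5.41, 4.28 and 5.29 in the dark. Each dark value was the higher there, as at 42.4% of all core regions. BBX28 lay within 1 kb of a region with 3.12, 3.07 and 2.53 in blue light and 3.32, 2.62 and 3.18 in the dark. Splicing factors and subunits of the MOS4-associated complex had 1 of 41, RS2Z33, an SR-type splicing factor gene within 1 kb of the summit in the ALS3 gene. Ribosomal proteins named RPL or RPS had 1 of 40, RPL5B, within 1 kb of a summit that also lies near AGL81.

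RNA genes of the spliceosome were described in the same way. Small nuclear RNAs (snRNAs) are the RNA parts of the spliceosome, and 14 of their 82 genes (17.1%) had a core region, all with a summit in the gene body, against 2.14% of all genes. By regions, 13 of the 533 core regions (2.44%) had their consensus summit in an snRNA gene, against 5 of 2384 other regions (0.210%). They were U2 genes in 7 of 23 cases, U1 in 3 of 14, U5 in 2 of 14, U4 in 1 of 12, U12 in 1 of 2 and U6 in 0 of 17. The classes were set out after their values were seen. The count of 14 was 9 with peaks of a −log10 q of at least 5, and also 9 with peaks of a fold of at least 3. U6, unlike the other classes named, is transcribed by RNA polymerase III.

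The snRNA regions were narrow and of middling strength. Their widths ran from 361 to 941 bp with a median of 445.5 bp, against 736 bp for the whole core, and 13 of the 14 had a single summit in every library. U2.11 (chromosome 1, 3180315 to 3180875) had the highest folds, 6.22, 4.97 and 7.91 in blue light and 7.13, 6.01 and 6.17 in the dark. U1.5 (chromosome 1, 2537945 to 2538345) had 3.85, 4.75 and 4.72 in blue light and 5.04, 3.80 and 4.52 in the dark, and U12 (chromosome 1, 22603020 to 22603460) had 4.08, 4.86 and 3.51 in blue light and 4.82, 3.24 and 4.83 in the dark. In all 3 the conditions overlapped. The median over the 14 genes of each gene's median fold was 4.09 in blue light and 4.24 in the dark. U5.1b differed, since the consensus summit of its wide region lay in the neighbouring SUE4 gene. Copies of an snRNA class are nearly identical in sequence, and how reads that match several copies were treated is not given in the sources used here, so the copy that carried the signal is uncertain.

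Transfer RNA (tRNA) genes showed the opposite order. Of 625 such genes, 6 (0.960%) had a core region, against 2.14% of all genes, and 1 of these, the methionine tRNA gene AT2G33140, held a summit in its body. It had folds of 2.66, 4.03 and 3.74 in blue light and 3.12, 2.41 and 3.80 in the dark. A tRNA gene lay at the consensus summit of 1 core region (0.188%), against 62 of the 2384 other regions (2.60%). The regions of 5, 4, 3, 2 and 1 libraries had 4, 4, 18, 13 and 23 such cases. Peaks at tRNA genes were thus found mostly in some libraries only. The count of 6 was 3 with either stricter threshold, 10 when dark replicate 2 was left out and 12 when dark replicate 3 was left out. Like the snRNAs, tRNA genes include near-identical copies. The remaining RNA classes had 36 core genes of 3480 long noncoding RNAs (1.03%), 4 of 287 small nucleolar RNAs and 1 of 326 microRNAs.

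At the edge of the rule, peaks inside and outside the core overlapped in strength. The core region with the worst mean rank lay over the oligopeptide transporter gene OPT8 (chromosome 5, 21743377 to 21743810), with folds of 2.60, 2.50 and 2.53 in blue light and 2.90, 3.24 and 3.30 in the dark. Of the 210 regions with peaks in 5 libraries, the best ranked lay over GRF7, a growth-regulating factor gene (chromosome 5, 21794884 to 21795757). It had 7.11, 7.18 and 6.33 in blue light and 2.37 and 2.64 in dark replicates 1 and 3, with no peak in dark replicate 2. Next came AT2G20410, with 4.41, 4.08 and 4.48 in blue light and 4.46 and 3.91 in dark replicates 1 and 3. Both of these exceed OPT8 in fold in the blue libraries but lack a peak in 1 dark library. The missing library was blue replicate 1, 2 or 3 in 27, 14 and 29 of the 210 regions and dark replicate 1, 2 or 3 in 37, 51 and 52. The median fold of the peaks was 4.07 in the core and 3.05 in the regions of 5 libraries.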

How the data were processed

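The submitters' processing notes name MACS2 2.1.1, Bowtie2, ChIPseeker and SAMtools, and TAIR10 as the genome build. Their parameters, the handling of reads that match several places and the control behind each list were not given in the sources used here. The deposited lists, 1 per library in the narrowPeak layout, were used as they are. Their fold is a ratio of signal over local background computed by the authors' caller. The −log10 of the p and q values per summit are also the authors' deposited values, with a lowest −log10 q near 2. The authors' deposited score follows the q value and was not used; the summit position is the authors' offset from the peak start. Groups were taken from titles.

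Peaks on chromosomes 1 to 5 were merged with Python 3.11.15 and pandas 2.3.3, and merging was checked on simulated peaks. The strongest summit had the highest −log10 q. Genes, names and biotypes came from a RefSeq table for TAIR10.1, without strand; printed coordinates are those of the lists, counted from 1. Libraries were compared by exact permutation tests. Promoter sequences and motifs planned for were not analysed here. The members, families and tests were chosen with earlier results of these data known. The families were drawn by symbol and then revised with synonyms, and with homonyms taken out, once the gene table was seen. Genes were named by a rule: the 20 best-ranked core regions, the 10 worst, the 10 widest, the 10 with the most summits, the 8 that differ most in place in each direction, the 8 with the largest summit distance, those without a gene, up to 12 at RNA genes, up to 6 per family, and 5 regions of 5 libraries; some were left out for space. Alternatives were stricter peak thresholds (−log10 q of at least 5, fold of at least 3), lists of equal length, an overlap of 50% of the shortest peak, gene bodies only, the summit of highest fold, leaving out each library, and a replicate block.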

Additional observations from a re-analysis of the deposited data

How the results depend on the processing

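The 533 core regions became 324 with a −log10 q of at least 5, 297 with a fold of at least 3, 443 with lists of equal length and 379 with the stricter overlap, all of them overlapping regions of the core; leaving out 1 library gave 547 to 584. The 732 protein-coding genes became 431 and 398 with the thresholds on q and fold, 443 with gene bodies only, and 749 to 808 without 1 library. The blue minus dark difference in gene-body share, -0.0625 points, changed sign to 0.103 with the threshold on q and 0.112 with that on fold, was 0 with 1 kb added to the genes, and ran from -0.286 to 0.485 without 1 library, above 0 without dark replicate 1 or 3. The width difference of 33.2 bp kept its sign under its 11 alternatives. It was 44.3 with lists of equal length, and ran from 20.9 to 39.8 without 1 library. The difference in summits per region, 0.0175, was -0.00112 with the threshold on fold, -0.0123 with the stricter overlap and -0.00274 to 0.0317 without 1 library, below 0 without blue replicate 2. The summit distance difference of 1.33 bp was -0.639 with the threshold on q, -1.17 with that on fold, and 0.167 to 3.54 without 1 library. The causes of these changes were not tested.

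Alternatives added after seeing the data gave 9 core snRNA genes with the threshold on q and 9 with that on fold, against 14, and 14 to 15 without 1 library. The gene-body share of core minus other regions, 12.1 points over libraries, was positive in all 10 alternatives, from 8.83 to 13.2 points. The replicate numbers did not pair the libraries: deviations of log2 fold from the condition mean at core regions correlated at -0.00872 to 0.0278 between same-numbered blue and dark libraries. With the replicate block, the differences were -0.0625 points (exact sign-flip test, p = 1), 33.2 bp (exact, p = 0.25) and 0.0175 summits (exact, p = 0.75), and no call changed.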

Other observations

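All 5 chromosomes held core regions, 147, 78, 95, 84 and 129 on chromosomes 1 to 5, or 20.5, 18.1, 17.4, 20.1 and 20.4 per 1000 protein-coding genes. Of the 533 regions, 33 (6.19%) lay within 5000 bp of another core region, in 15 groups of at most 3. The 3 groups of 3 were the CYP71B genes of chromosome 1, a group at SEC14 on chromosome 4 (18243849 to 18253137), and a group at DDB2 and the neighbouring cPT4, cPT5 and cPT6 on chromosome 5 (23730213 to 23738593).

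Of the 72 core regions with the consensus summit outside a gene but within 1 kb, 55 lay near at least 2 genes and 17 near 1 gene. The 3 regions without a gene in that distance lay on chromosome 4 (525152 to 525602), chromosome 5 (18378584 to 18378996) and chromosome 3 (9739252 to 9739870). The first had folds of 3.76, 4.43 and 3.52 in blue light and 6.01, 5.63 and 5.76 in the dark. The second had 3.84, 3.34 and 3.35 in blue light and 4.37, 4.20 and 4.37 in the dark, and the third 2.56, 3.01 and 2.80 in blue light and 3.08, 3.64 and 3.37 in the dark. At all 3 each dark value lay above each blue value, as at 42.4% of all core regions.

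At least 2 summits in every library were seen, besides HSFA7A, at RLP29, a receptor-like protein gene with folds of 9.11, 10.1 and 9.77 in blue light and 13.5, 13.4 and 10.2 in the dark, and at SEOa, a gene of sieve element occlusion, with 7.73, 8.28 and 7.69 in blue light and 12.9, 11.4 and 11.3 in the dark. At both genes every dark value exceeded every blue value, the order of 42.4% of the core regions. Among other noncoding genes, the microRNA gene MIR837 lay within 1 kb of a core region (chromosome 1, 6521190 to 6522020), and the noncoding RNA gene GUT15 held one (chromosome 2, 7994832 to 7995985), with median folds of 2.46 in blue light and 2.37 in the dark.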
